A study of Mus musculus with 20 samples.

Results

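The 37 genes carried by the mouse mitochondrial chromosome were examined in whole DRG (dorsal root ganglia), which hold the cell bodies of sensory neurons with their glia. They were taken by one rule, a position on chromosome M in the mouse annotation, which gave 2 ribosomal RNAs (rRNAs), 13 messenger RNAs (mRNAs) and 22 transfer RNAs (tRNAs) among the 37620 genes listed. The ganglia came from 10 C57Bl/6 embryos at E18.5, near the end of mouse gestation, with no treatment or altered allele named in the labels. Each of 5 male donors (M1, M3, M5, M7 and M8) and 5 female donors (F3, F7, F8, F9 and F10) gave 1 lumbar library (L4-5) and 1 sacral library (L6-S1), so the 20 libraries formed 4 groups of 5. RNA of whole ganglia was amplified as cDNA before sequencing, so neurons, glia and adherent tissue were measured together. The question asked of these genes was whether they differ between adjacent spinal levels of the same donor, and between the sexes, before birth.

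The mitochondrial chromosome is read from both strands as long transcripts that are cut into the separate RNAs, largely at the tRNAs that lie between the other genes. The rRNAs, mt-Rnr1 and mt-Rnr2, form the small and large subunits of the mitochondrial ribosome. The mRNAs encode subunits of the respiratory chain: mt-Nd1 to mt-Nd6 and mt-Nd4l of complex I, mt-Cytb of complex III, mt-Co1 to mt-Co3 of complex IV, and mt-Atp6 and mt-Atp8 of the ATP synthase. The tRNAs serve translation of these mRNAs inside the organelle. Sensory neurons, with axons that are long relative to the cell body, are known for a high demand for mitochondria.

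The depth, recovered from the steps of the deposited values, was 19606265 to 39678967 reads per library. Levels are given as log2 RPKM (log2 of reads relative to gene length and library size, scaled by the authors between libraries), and tests were limma fits with donor as a block over 14529 genes. All 10 neuronal markers examined were measured in the ganglia, and the weakest of them had a mean of 4.09 log2 RPKM. The lumbar library of M5 and the sacral library of F3 stood apart from their groups in most mitochondrial genes, the former high and the latter low, and results are also given without them. The library numbers in the labels ran in 1 block per sex, so sex and library order cannot be told apart.

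The sequences of 6 tRNAs are shown because the results below turn on them: the 3 with the most reads, the 2 with the fewest, and mt-Ty, the tRNA beside mt-Co1. They were read from the mm9 mouse genome at the positions of the GENCODE M1 annotation, 5′ to 3′ on the strand of the gene, and capitals mark the anticodon.
mt-Tv (valine), chrM:1025-1093, plus strand: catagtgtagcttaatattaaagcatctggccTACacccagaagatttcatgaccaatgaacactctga
mt-Tf (phenylalanine), chrM:1-68, plus strand: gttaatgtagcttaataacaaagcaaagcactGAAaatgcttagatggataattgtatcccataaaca
mt-Tl1 (leucine), chrM:2676-2750, plus strand: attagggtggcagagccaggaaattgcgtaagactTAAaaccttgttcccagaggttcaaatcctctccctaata
mt-Ty (tyrosine), chrM:5260-5326, minus strand: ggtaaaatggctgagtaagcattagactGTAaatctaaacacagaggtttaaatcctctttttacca
mt-Tt (threonine), chrM:15289-15355, plus strand: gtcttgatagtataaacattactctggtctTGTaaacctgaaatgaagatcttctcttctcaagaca
mt-Tk (lysine), chrM:7700-7764, plus strand: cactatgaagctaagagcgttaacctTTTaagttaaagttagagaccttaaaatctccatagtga

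Genes on this chromosome abut or overlap, and this bears on every level given here. The longest overlap was between mt-Atp8 and mt-Atp6, whose reading frames share 43 bases at chrM:7927-7969. In the shared stretch the first capitals are the start codon of mt-Atp6 and the last are the stop codon of mt-Atp8.
mt-Atp8/mt-Atp6 overlap: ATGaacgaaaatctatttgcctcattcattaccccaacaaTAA
mt-Nd4l and mt-Nd4 shared 7 bases, and mt-Nd5 and mt-Nd6, which lie on opposite strands, shared 14. mt-Tv lies between mt-Rnr1 (chrM:70-1024) and mt-Rnr2 (chrM:1094-2675) with no base to spare on either side. How a read over more than 1 gene was counted is not given in the sources used here, nor is use of the strand. Reads of mt-Nd6 and of the 8 tRNAs on the minus strand can therefore not be told apart from reads of the opposite strand.

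In all 20 libraries the rRNAs held most of the mitochondrial reads. The 37 genes together took 19.85% to 69.84% of the reads of a library, with a median of 33.57%. The rRNAs took 17.83% to 61.05%, the mRNAs 1.95% to 8.48% and the tRNAs 0.0749% to 0.302%. For each class the sacral library of F3 was the lowest and the lumbar library of M5 the highest. The 95% Wilson interval of the smallest of these shares, 0.0749%, ran from 0.0739% to 0.0759%, and such intervals cover counting error only.

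The ratio of rRNA to mRNA varied far less than either class. A library held 7.20 to 11.7 rRNA reads per mRNA read, a range of 1.63-fold, where the rRNA share itself ranged over 3.42-fold and the mRNA share over 4.36-fold. The lowest ratio was that of the lumbar library of M5, the one with the highest share of both classes, and the highest that of the lumbar library of F8. With reads per unit of length summed over the genes of each class, the rRNAs exceeded the mRNAs by 6.70 to 10.5 times. The mRNA sum runs over more genes, and 6 of them lie whole, and 2 in part, in a near-identical nuclear copy described below. Reads left out or placed on that copy would raise both ratios, and their part was not tested. Among the males the read ratio averaged 8.97 ± 1.49 (SD, n = 5) at the lumbar and 9.08 ± 1.60 at the sacral level, and among the females 10.3 ± 0.986 and 9.49 ± 0.422.

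No class moved in 1 direction between the levels. The rRNA share was higher in the sacral than in the lumbar library in 3 of 10 donors, and the mRNA share and the tRNA share in 5 of 10 each. On the log2 scale the sacral library exceeded the lumbar one by 0.06 ± 0.44 (SD, n = 10 donors) in the rRNA share and by 0.11 ± 0.42 in the mRNA share, and the tRNA share differed by 0.00 ± 0.52. The ratio of rRNA to mRNA differed by -0.05 ± 0.15, with 5 of 10 donors higher. The donors at the ends were F9, whose sacral rRNA share was 0.85 above its lumbar share, and F3, whose sacral share was 0.38 below on the same scale (-0.38). Without donors M5 and F3 the means over 8 donors were 0.16 ± 0.43 for rRNA, 0.19 ± 0.43 for mRNA and 0.13 ± 0.50 for tRNA. In both of these donors the sacral share was the lower in each class, so leaving them out raises the means by construction. In bulk tissue, fewer cells rich in mitochondria and less mitochondrial RNA per cell cannot be told apart.

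**Figure D1:**
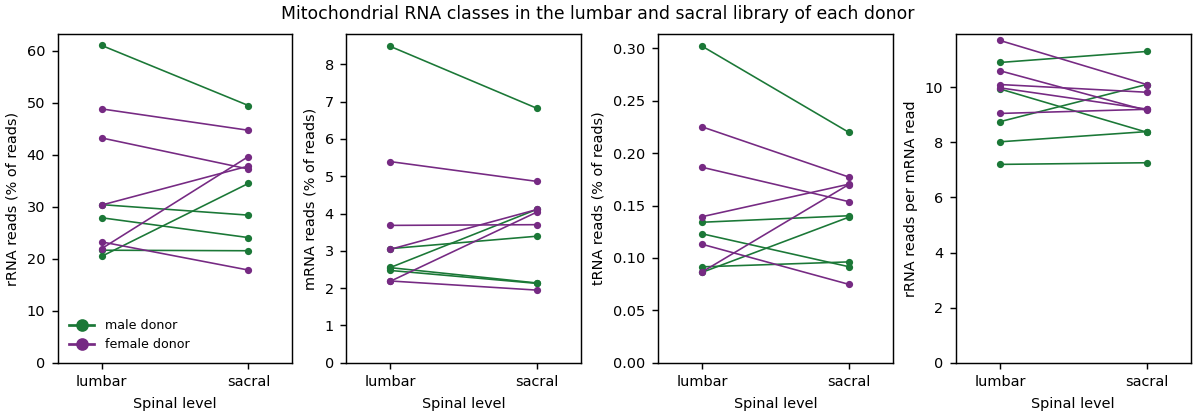
Share of a library's reads on mitochondrial rRNA, mRNA and tRNA genes (percent) and the number of rRNA reads per mRNA read, with a line joining the lumbar and the sacral library of each of 10 donors (green, male donors; purple, female donors). Lines cross in each panel: the sacral library was the higher in 3 donors for rRNA and in 5 for each of the others.

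The neuronal markers were lower in the libraries with a high mitochondrial share. In the 3 lumbar libraries with the highest rRNA share (M5, F7 and F8, at 43.25% to 61.05%) the summed level of the 10 neuronal markers was 1410 to 1680 RPKM, and in the other 7 it was 2570 to 3370 RPKM. Among the sacral libraries the sum was lowest in F7 (608 RPKM, rRNA share 44.73%) and highest in F3 (2200 RPKM, rRNA share 17.83%). The highest sacral rRNA share was that of M5 (49.49%), where the sum was 1140 RPKM. The 8 glial markers summed to 163 to 343 RPKM, with the highest value in the lumbar library of M5. Skeletal muscle markers ranged from 25.3 to 491 RPKM, red cell markers from 90.3 to 344, fibroblast and meningeal markers from 190 to 590, endothelial markers from 25.8 to 61.2 and cartilage markers from 4.54 to 27.1. Between the levels, the neuronal sum was lower in the sacral library in 9 of 10 donors (log2 difference -0.65 ± 0.44, SD) and the glial sum in 9 of 10 (-0.40 ± 0.29). The fibroblast sum was higher in 9 of 10 (0.41 ± 0.36), as were the endothelial (0.34 ± 0.29) and cartilage sums (0.79 ± 0.40). Of the 5 cartilage markers, 3 reached a mean of 1 RPKM in any group, and the weakest averaged -3.68 log2 RPKM. The part of these tissues in the mitochondrial differences was not tested.

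Of the rRNAs, mt-Rnr2 was the most abundant of all genes tested and mt-Rnr1 the next. In lumbar male libraries mt-Rnr2 measured 16.72 in M1, 16.26 in M3, 18.56 in M5, 16.86 in M7 and 16.22 log2 RPKM in M8. Their sacral libraries, in the same order, measured 16.31, 16.18, 17.86, 16.91 and 17.05. M5 was the highest male donor at both levels, and the levels overlapped.

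The female lumbar libraries measured 16.49 in F3, 17.83 in F7, 17.52 in F8, 16.23 in F9 and 16.90 log2 RPKM in F10, and their sacral libraries 15.89, 17.43, 17.17, 17.28 and 17.21. F7 was the highest female donor at both levels, and F9 changed place, from the lowest lumbar to the second highest sacral value. The sacral minus lumbar difference was -0.03 ± 0.36 (SE) for mt-Rnr2 and 0.04 ± 0.35 for mt-Rnr1, with limma adjusted p-values of 0.97 and 0.954. Per unit of length mt-Rnr2 exceeded mt-Rnr1 in every library, by 1.29 times (sacral M8) to 2.01 times (lumbar M1).

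The mRNAs spanned a wide range of levels. mt-Co1, the catalytic core of complex IV, and mt-Nd1, a membrane subunit of complex I, led with means of 12.54 and 12.53 log2 RPKM. The difference between this pair, -0.01 ± 0.14 (SD over 20 libraries), was within its spread. mt-Cytb, of complex III, differed from mt-Co1 by -0.45 ± 0.18 on the same scale. mt-Nd5 and mt-Nd4 both averaged 11.08, mt-Nd2 10.67 and mt-Nd6 9.89. These are subunits of complex I, and mt-Nd6 is the one mRNA of the minus strand.

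The other 6 mRNAs were lower. mt-Atp8 averaged 8.90, mt-Co2 8.29, mt-Atp6 8.18, mt-Co3 6.81 and mt-Nd3 and mt-Nd4l 6.55 each, so that mt-Co2 lay 19.0-fold and mt-Co3 52.9-fold below mt-Co1, the core subunit with which they assemble. In 20 of 20 libraries each of these 6 lay below each of the other 7, by a gap of 0.75 to 1.35 log2 units. They held 1.85% to 2.91% of the mRNA reads.

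These 6 are the mRNAs that lie whole in a copy of mitochondrial DNA on chromosome 1. Bases 6390 to 11042 of chromosome M match chr1:24618374-24623027 (mm9, minus strand) with an identity of 99.9% over 4654 aligned bases. The differences were A6393T in mt-Co1, T9461C in mt-Nd3 (chromosome M base, position on chromosome M, base of the copy on the same strand) and 1 base added in the copy at position 9821, in mt-Tr. The authors state that only uniquely aligned reads were kept, which would leave out a read that fits both places equally. Reads were nevertheless counted in mt-Atp6 (2847 to 11926 per library), where no difference from the copy was found. How such reads were placed is not given in the sources used here. In mt-Co2, mt-Atp8 and mt-Atp6, 100% of the windows of 100 bases were also found in the nuclear genome, against 96.7% in mt-Co3, 89.1% in mt-Nd4l and 60.4% in mt-Nd3. The read length is not given in the sources used here.

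mt-Nd4 and mt-Co1 reached into the chromosome 1 copy with 63.6% and 31.3% of their bases, and mt-Nd1, mt-Nd2, mt-Nd5, mt-Nd6 and mt-Cytb lay outside it. A second nuclear copy, chr2:22442808-22446054, matched bases 4441 to 7699 of chromosome M at an identity of 97.4%. That stretch holds part of mt-Nd2 and, among others, mt-Ty, mt-Co1 and mt-Co2. Of the windows of 100 bases over mt-Nd2, 2.6% were also found in the nuclear genome. The part of these copies in the low levels was not tested.

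The annotated nuclear genes of the copy also carried reads. Gm10925 (chr1:24620814-24621627), which lies over the copy of mt-Atp8 and mt-Atp6, had 4229 to 17776 reads per library, or 1.23 to 1.54 times those of mt-Atp6. Gm10222 (chr1:24619243-24619539), over the copy of mt-Nd4l and the start of mt-Nd4, had 534 to 2669 reads, or 1.13 to 1.47 times those of mt-Nd4l. Both were lowest in the sacral library of M1 and highest in the lumbar library of M5. With the reads of Gm10925 added, the 842 bases of mt-Atp8 and mt-Atp6 reached a median of 9.54 log2 RPKM (here relative to all recovered reads) in place of 8.59. With those of Gm10222, mt-Nd4l reached 7.84 in place of 6.70. Both sums remained below mt-Nd6, at a median of 10.08 on that scale, in 20 of 20 libraries. Any reads left out as not unique would be in neither sum, and the part of the copy in the low levels was not tested.

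**Figure D2:**
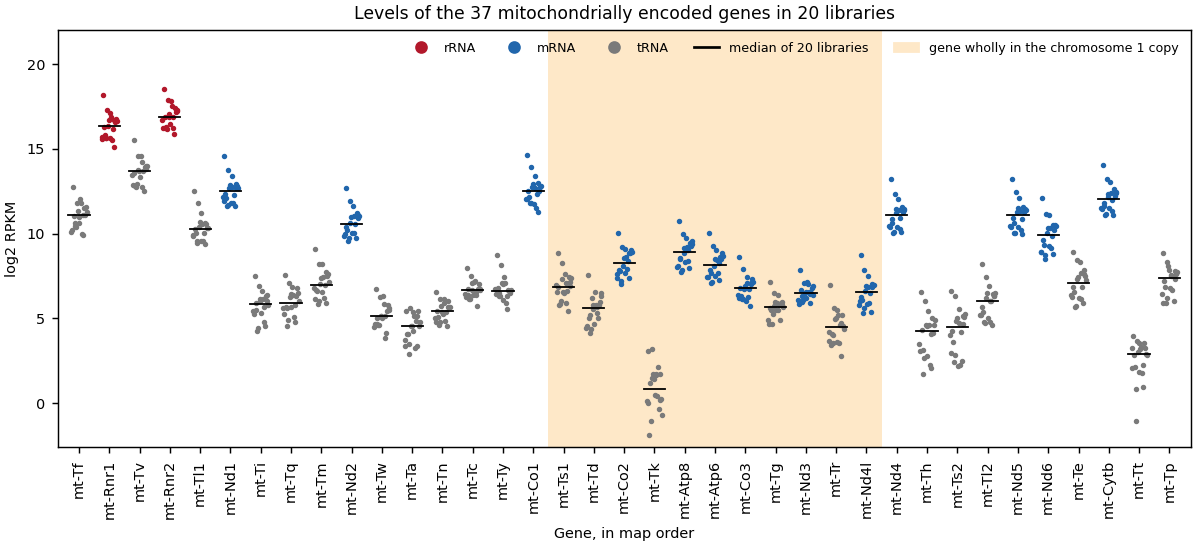
Level (log2 RPKM) of each of the 37 genes in map order, with 1 point per library (red, rRNA; blue, mRNA; grey, tRNA) and a bar at the median of 20 libraries; shading marks genes that lie whole in the chromosome 1 copy. The rRNAs lie highest, mt-Tv between them is the highest tRNA, and the 6 mRNAs in the shaded stretch are the lowest of the 13.

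Among the tRNAs, those beside the rRNAs were the ones with reads in number. mt-Tv, between the rRNAs, held 66.7% to 78.7% of all tRNA reads. mt-Tf, which precedes mt-Rnr1, and mt-Tl1, which follows mt-Rnr2, brought this to 91.8% to 94.2%. The other 19 tRNAs shared 1226 (sacral M1) to 4730 reads (lumbar M5) per library. Mean levels were 13.64 log2 RPKM for mt-Tv, 11.04 for mt-Tf and 10.34 for mt-Tl1, and the next tRNA was mt-Tp (proline) at 7.21. No base separates mt-Tv or mt-Tl1 from the rRNA genes, and the part of reads that run over from the rRNAs was not tested. The tRNA genes are 59 to 75 bases long. Reads of mature tRNAs and of longer RNAs that hold their sequence cannot be told apart, here or for the tRNAs below.

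The other tRNAs were within 4.01 (mt-Th, histidine) and 7.21 log2 RPKM on average, apart from mt-Tt and mt-Tk. The 5 that came next to mt-Tp were mt-Tm (methionine) at 7.06, mt-Te (glutamate) at 7.05, mt-Ts1 (a serine tRNA) at 6.86, mt-Ty at 6.75 and mt-Tc (cysteine) at 6.70. mt-Tq (glutamine) averaged 5.96, mt-Tl2 (the other leucine tRNA) 5.92, mt-Ti (isoleucine) 5.76, mt-Tg (glycine) 5.67, mt-Td (aspartate) 5.53, mt-Tn (asparagine) 5.44 and mt-Tw (tryptophan) 5.20. The lowest of this range were mt-Tr (arginine) at 4.49, mt-Ta (alanine) at 4.40, mt-Ts2 (the other serine tRNA) at 4.23 and mt-Th.

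mt-Tt, between mt-Cytb and mt-Tp, had 1 to 28 reads per library and 260 in all. mt-Tk, between mt-Co2 and mt-Atp8, had 0 to 12 reads and 88 in all. Its 1 library without a read was the lumbar library of M7, where 0 of 25028817 reads allows up to 3. mt-Tk lies whole in the chromosome 1 copy, whereas mt-Tt does not. At these numbers differences between groups in mt-Tk and mt-Tt were not measurable with any precision.

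The genes of the chromosome moved together from library to library. Within the 10 lumbar libraries, Pearson's r between mt-Rnr2 and each of the 13 mRNAs was 0.911 (mt-Nd3) to 0.972 (mt-Cytb), and Spearman's rho 0.733 to 0.903. Within the 10 sacral libraries r was 0.907 (mt-Nd3) to 0.986 (mt-Co3) and rho 0.818 to 0.964. With mt-Rnr1, mt-Rnr2 had an r of 0.977 in lumbar and 0.987 in sacral libraries.

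All 28 relations passed a two-sided permutation test with 100000 resamples after Benjamini-Hochberg adjustment over the family, with adjusted p-values of at most 0.00059 for r and 0.0207 for rho (permutation tests). Leaving out the pair of lumbar libraries farthest from the median of mt-Rnr2 (M5 and F7) gave an r of 0.697 to 0.920 for the mRNAs. Leaving out F3 and M3 among the sacral ones gave 0.861 to 0.987. All genes of a library share its scaling and its reads, so the relations are not independent of each other. With scaling to nuclear reads, r was 0.946 to 0.980 for the mRNAs in lumbar and 0.951 to 0.990 in sacral libraries. With scaling to all recovered reads it was 0.775 to 0.936 in lumbar and at least 0.808 in sacral libraries, and without the farthest lumbar pair at least 0.550 (mt-Nd3). The families held 5 libraries per sex and level, too few for a value within each sex.

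The mRNAs did not all follow mt-Rnr2 by the same amount. Per log2 unit of mt-Rnr2, mt-Nd6 changed by 1.27 in lumbar and 1.41 in sacral libraries, and mt-Nd3 by 0.70 and 0.58, the ends of the range at both levels. The median over the 13 mRNAs was 1.07 in lumbar and 1.22 in sacral libraries. Without donor M5 the lumbar median was 0.86. These slopes are descriptions, and no test was made between genes.

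**Figure D3:**
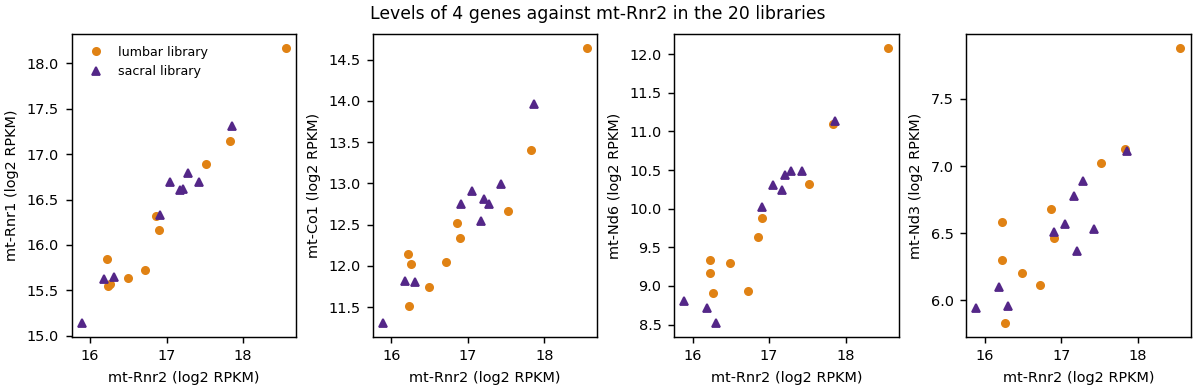
Level of mt-Rnr1, mt-Co1, mt-Nd6 and mt-Nd3 against the level of mt-Rnr2 (both log2 RPKM) in the 10 lumbar (orange circles) and 10 sacral (purple triangles) libraries. The 4 genes rise with mt-Rnr2, mt-Nd6 the most steeply and mt-Nd3 the least, and the lumbar library of M5 is the point at the upper right.

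Within groups the mitochondrial genes varied more than most. The SD within groups was 0.53 (mt-Nd3) to 1.44 (mt-Th) on the log2 scale, with a median of 0.88 over the 37 genes, against 0.37 over all genes tested. For mt-Co1 it was 0.87, above that of 92.7% of genes tested. The lumbar and the sacral library of a donor tended to lie high or low together. Over 10 donors r was 0.659 (mt-Rnr2) to 0.811 (mt-Nd3) for the 15 rRNA and mRNA genes. All 15 passed by r (permutation tests, adjusted p of at most 0.0358) and 7 by rho. Without donors M5 and F7 (M5 and M3 for mt-Nd3), the farthest from the lumbar median, r was 0.286 for mt-Rnr2 and 0.376 for mt-Co1. It stayed about as large for mt-Co2 (0.713 with and 0.745 without), mt-Atp8 (0.761 and 0.750) and mt-Atp6 (0.735 and 0.695). Without M3 alone, and without M5 alone, 0 of the 15 passed, with r of 0.611 to 0.785 and 0.471 to 0.724 over 9 donors.

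To see whether any gene differed between spinal levels, the sacral library of each donor was set against its lumbar one. None of the 37 genes passed (limma, adjusted p of 0.622 to 1.0), and none had an unadjusted p under 0.05. Over all genes tested, 978 of 14529 passed (6.73%) and 3501 had an unadjusted p under 0.05. The mRNA differences ran from -0.14 (mt-Nd3) to 0.08 (mt-Co2) on the log2 scale, with a median of 0.04. The tRNA differences ran from -0.31 (mt-Tt) to 0.37 (mt-Ts2), with a median of -0.01.

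The values of mt-Co1 by donor went both ways. In M1, M3, M5, M7 and M8 the lumbar libraries measured 12.05, 12.03, 14.64, 12.52 and 12.15 log2 RPKM, and the sacral ones 11.81, 11.82, 13.96, 12.75 and 12.91. In F3, F7, F8, F9 and F10 the lumbar libraries measured 11.75, 13.40, 12.67, 11.51 and 12.34, and the sacral ones 11.31, 12.99, 12.54, 12.75 and 12.81. The sacral library was the higher in M7, M8, F9 and F10, thus in 4 of 10 donors. The fitted difference was 0.06 ± 0.29 (SE, limma adjusted p = 0.914).

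mt-Nd6 behaved alike. Its lumbar libraries measured 8.94, 8.91, 12.08, 9.63 and 9.34 log2 RPKM in the males and 9.29, 11.10, 10.32, 9.17 and 9.88 in the females. Its sacral libraries measured 8.52, 8.72, 11.14, 10.02 and 10.31, and 8.80, 10.49, 10.24, 10.49 and 10.43. Again 4 of 10 donors were higher in the sacral library, and the difference was 0.05 ± 0.31 (SE, limma adjusted p = 0.934).

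The fit with donor as a block did not allow a difference of moderate size to be told from none. Its 95% intervals of the level difference reached from -0.60 to 0.70 over the mRNAs, from -0.79 to 0.78 over the rRNAs and from -1.17 to 1.27 over the tRNAs. With donor as a fixed term the SE was 0.20 in place of 0.29 for mt-Co1 and 0.34 in place of 0.36 for mt-Rnr2. There too 0 of the 37 genes passed (lowest limma adjusted p 0.46). Without the lumbar library of M5 and the sacral library of F3, which leaves the other library of these donors in the fit, the median over the 37 genes was 0.37 in place of 0.02. 36 genes then had a positive difference, and 0 passed (lowest limma adjusted p 0.216). The libraries left out were a high lumbar and a low sacral one. Leaving them out raises the sacral minus lumbar difference by construction, so the shift is not evidence of a level difference.

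**Figure D4:**
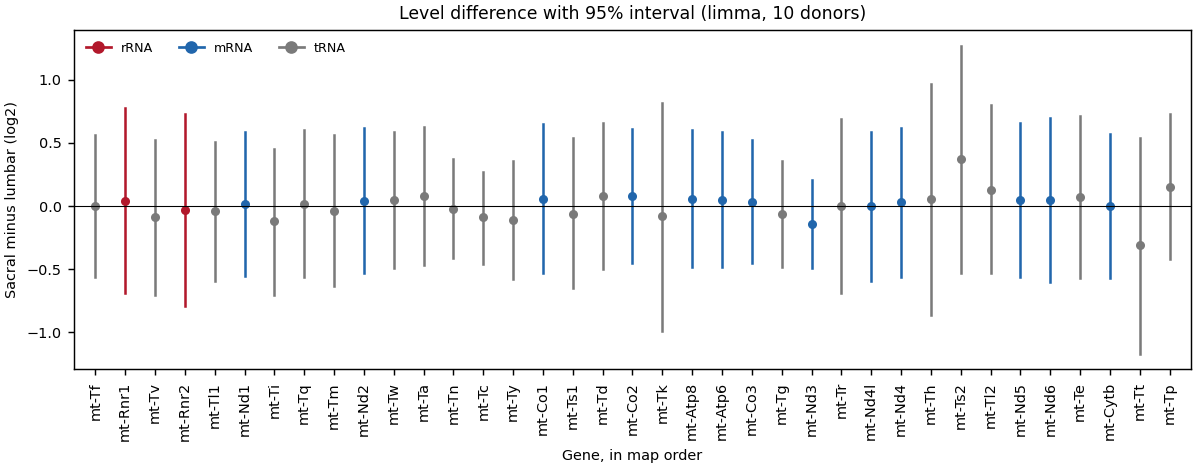
Sacral minus lumbar difference (log2) of each of the 37 genes in map order, with points for the limma estimate over 10 donors and lines for its 95% interval (red, rRNA; blue, mRNA; grey, tRNA). Each interval spans 0, and those of mt-Tk, mt-Th, mt-Ts2 and mt-Tt are the widest.

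The sexes were then compared within each level. Again none of the 37 genes passed. In lumbar libraries the lowest adjusted p was 0.817 (limma), with 48 of 14529 genes called (0.33%), and in sacral libraries it was 0.472, with 147 called (1.01%). No member had an unadjusted p under 0.05 in either, against 1203 and 2256 of all genes. Female minus male differences ran from -0.34 (mt-Co1) to 0.18 (mt-Co2) over the mRNAs in lumbar, and from -0.17 (mt-Co1) to 0.58 (mt-Co2) in sacral libraries. The interaction of level and sex passed for 0 of the 37 genes and for 0 of 14529 genes (0.0%, limma). The numbers with an unadjusted p under 0.05 were 1 and 470, and the 1 was mt-Tk. Males and females did not separate in log2 RPKM for any of the 37 genes at either level, against 2.19% of all tested genes in lumbar and 3.96% in sacral libraries, and 0.544% over both.

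Set against the other mitochondrial mRNAs, some genes separated the sexes. This comparison was chosen after the values were seen and is given with no test. mt-Co1 held 31.7% to 35.2% of the reads of the 13 mRNAs in the 10 male libraries and 27.1% to 30.5% in the 10 female libraries. By group its share was 32.6% ± 0.915 (SD, n = 5) in lumbar male, 29.0% ± 1.24 in lumbar female, 33.5% ± 1.38 in sacral male and 29.1% ± 1.31 in sacral female libraries. Every female library lay below every male one.

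mt-Nd2, of complex I, went the other way, with 4.69% to 5.60% in male and 5.91% to 6.49% in female libraries. mt-Cytb held 15.3% to 16.7% in male and 16.9% to 18.3% in female libraries. These 3 of 13 mRNAs, and none of the rRNAs and tRNAs, did not overlap between the sexes over the 20 libraries. Over all tested genes with recovered reads, set against the same mRNA sum, 10 of 14146 did not overlap (0.0707%). A nuclear gene on that scale also carries the spread of the mitochondrial mRNA sum.

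Since the shares add to a whole, a low mt-Co1 raises the others. Among the reads of the 12 other mRNAs, mt-Nd2 held 6.90% to 8.24% in males and 8.48% to 8.97% in females, still with no overlap. mt-Cytb held 22.6% to 25% and 23.8% to 25.8%, which overlapped. mt-Nd1 held 17.7% to 21.3% of the mRNA reads in both sexes together. In sacral libraries alone mt-Co2, mt-Atp8 and mt-Atp6, 3 of the genes in the chromosome 1 copy, were also higher in every female than in every male library as shares of mRNA, and mt-Ty lower relative to it (0.551% of all genes did not overlap there, and 0.353% in lumbar libraries).

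mt-Ty, separated from mt-Co1 by 1 base and read from the opposite strand, was also lower in females relative to mt-Rnr2. Its level relative to mt-Rnr2 was -10.06 to -9.70 (log2) in male and -10.76 to -10.33 in female libraries, without overlap. It was the 1 of 36 other members that did not overlap on this scale, against 8 of 14528 genes (0.0551%). The scale was chosen after the values were seen, and relative to the mRNA reads mt-Ty overlapped over the 20 libraries and over the lumbar ones. It had 165 to 465 reads per male and 121 to 381 per female library. A fit of all genes tested was also made with the rRNA share of a library as a covariate. In it mt-Ty was lower in females by -0.54 ± 0.11 (SE, limma adjusted p = 0.0142) in lumbar libraries. In sacral libraries the difference was -0.79 ± 0.11 (limma adjusted p = 0.000349). It was the 1 call among the 35 mRNA and tRNA genes at each level, the rRNAs being left out. Of all genes, 1.57% passed in lumbar and 4.85% in sacral libraries (0.84% and 3.26% lower in females).

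In the same fit mt-Co1 was -0.43 ± 0.15 at both levels and did not pass (limma adjusted p = 0.178 in lumbar, 0.104 in sacral libraries). Every window of 50 bases over mt-Ty, and 46.4% of those of 100 bases, is also found in the nuclear genome. Without strand, its reads and run-over reads of mt-Co1 cannot be told apart. Sex and library order cannot be told apart either.

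**Figure D5:**
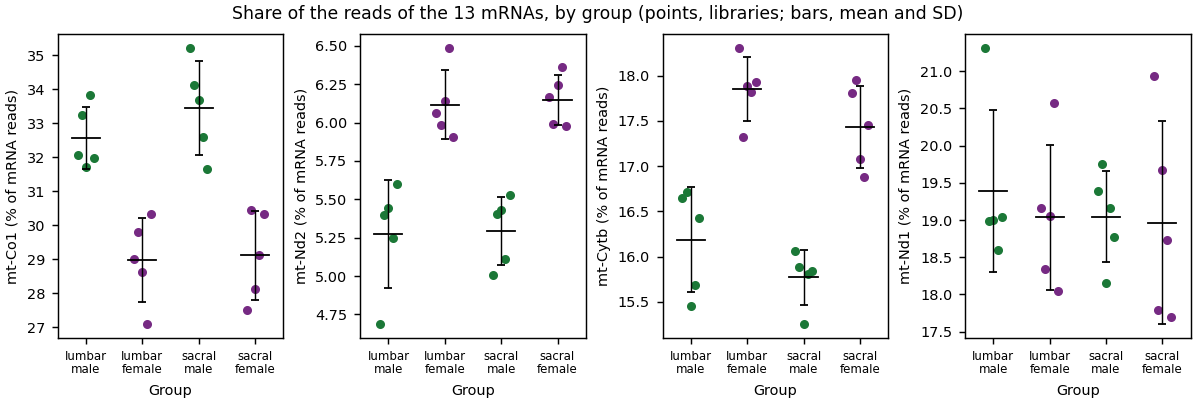
Share (percent) of the reads of the 13 mitochondrial mRNAs held by mt-Co1, mt-Nd2, mt-Cytb and mt-Nd1 in the 4 groups, with 1 point per library (green, male; purple, female) and the mean with SD (n = 5). mt-Co1 is lower, and mt-Nd2 and mt-Cytb higher, in every female than in every male library, while mt-Nd1 overlaps; axes do not start at 0.

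Most shares went both ways between the levels, and no test was made of them. As a share of mRNA, mt-Co1 was higher in the sacral library in 6 of 10 donors (log2 difference 0.02 ± 0.07, SD), mt-Nd2 in 6 (0.01 ± 0.04) and mt-Nd6 in 6 (0.01 ± 0.14). mt-Cytb was higher in 2 of 10 donors, with a difference of -0.04 ± 0.04. mt-Nd3 had the widest spread, -0.18 ± 0.41, with 3 of 10 donors higher.

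The nuclear genes that act on the mitochondrial chromosome were also compared between the levels. Of 34 tested genes of mitochondrial transcription, RNA processing, decay and copy number, 1 was lower in sacral DRG and none higher (limma, 2.94% against 6.73% of all genes). The median difference was -0.06, and -0.05 over all genes, and those of the list ran from -0.34 to 0.68. The 1 was Ptcd2, a mitochondrial RNA-processing protein, at -0.34 ± 0.10 (SE, limma adjusted p = 0.0456). Tfam, which packages mitochondrial DNA and starts its transcription, differed by 0.12 ± 0.11 (limma adjusted p = 0.515), and Polrmt, the mitochondrial RNA polymerase, by -0.13 ± 0.16 (limma adjusted p = 0.660). Lrpprc, which stabilises the mRNAs, differed by -0.03 ± 0.10 (limma adjusted p = 0.851). Its partner Slirp was not found under that symbol. None of the 34 genes passed between the sexes at either level.

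Some nuclear subunits of the respiratory chain were lower in sacral DRG. Of 79 tested, 18 were lower and none higher (22.8%, against 6.73% of all genes), with a median of -0.28 against -0.05 over all genes. Scaled to nuclear reads, 7 passed (8.86%, against 5.36% of all genes), with a median of -0.22 against 0.01. The neuronal marker sum was lower in the same direction, in 9 of 10 donors, and its part in this was not tested. The 5 with the smallest adjusted p were the complex I subunits Ndufs8 (-0.40 ± 0.08), Ndufs5 (-0.57 ± 0.13) and Ndufa9 (-0.58 ± 0.13), and the ATP synthase subunits Atp5o (-0.40 ± 0.09) and Atp5j2 (-0.48 ± 0.11; SE, limma adjusted p of 0.0084 to 0.0137). Their partner subunits encoded in the mitochondrion had no such difference past the test, and the difference between these sets was not tested.

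Between the sexes 1 of the 79 passed, Ndufa1, an X-linked complex I subunit, higher in sacral females by 0.98 ± 0.24 (SE, limma adjusted p = 0.0493). This is 1.27% of the list, near the 1.01% of all genes. It was named after its values were seen. In lumbar libraries the difference was 0.35 ± 0.24. Among the 79 subunits, 65 were higher in females in lumbar libraries, with a median of 0.22 against 0.02 over all genes. In sacral libraries 61 were higher, with a median of 0.34 against -0.03. These were not tested as a set, and sex and library order cannot be told apart. Of 27 tested genes of mitochondrial import, metabolism and dynamics, 2 were lower in sacral DRG and none higher, with a median of -0.18 against -0.05 over all genes. The share called, 7.41%, was near the 6.73% of all genes. They were Slc25a5, an ADP/ATP carrier (-0.32 ± 0.09, limma adjusted p = 0.0357), and Vdac2, an outer membrane channel (-0.24 ± 0.07, limma adjusted p = 0.0474). Scaled to nuclear reads, 1 of these 27 and none of the 34 genes of transcription and processing passed. The median within-group SD of the 3 lists was 0.28, 0.34 and 0.32, against 0.88 for the genes of the chromosome itself.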

How the data were processed

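The authors aligned reads to mm9 (Ensembl v67) with Subread, kept uniquely mapping reads, counted them per gene with featureCounts, and applied TMM scaling and voom; the deposited values are log2 RPKM, 1 column per library. With blanks left out, the median of the deposited values was 0.93 log2 RPKM in every library (range of medians 3.4e-08). An alignment of medians is not among the steps the paper states. Here whole reads were recovered from the steps of the values with GENCODE M1 exon lengths (98.27% of values within 0.05 of a whole read). A blank was set to 0.5 reads. Differences were fitted with limma 3.58.1 (R 4.3.3) on the deposited scale over all 20 libraries, with a mean per group, donor as a block (duplicateCorrelation, consensus 0.342) and a variance trend, for genes with a group mean of at least 1 RPKM. Benjamini-Hochberg adjustment ran over the 14529 genes (threshold 0.05, two-sided). The 2 libraries of a donor come from 1 embryo, which the donor code in the labels shows. Class sums are shares of all recovered reads. Nuclear copies were found with blastn 2.17.0+ (at least 90% identity over 50 bases). All 37 members are named; of each list of nuclear genes, up to 5 called in any comparison are named by smallest adjusted p, with Tfam, Polrmt and Lrpprc whatever their result. Alternatives were other scalings, filters, blanks, donor terms, sample weights, the rRNA share as a covariate and each donor left out. The scripts were tested on simulated data. The members and lists were chosen with earlier results of these data known.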

Additional observations from a re-analysis of the deposited data

Results flagged for a closer look

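Of 168 groups of 5 libraries examined over 42 measures, 55 held 1 library whose gap to its nearest neighbour took more than 0.71 of the range of the group (Dixon's ratio). Chance gives about 1 such group in 20, and the measures are not independent of each other. Each of the 55 was the lumbar library of M5, above the other lumbar male libraries, or the sacral library of F3, below the other sacral female libraries. For the lumbar library of M5 the ratio was 0.726 for mt-Rnr2, 0.865 for mt-Tl1, 0.839 for mt-Nd1, 0.721 for mt-Ti, 0.816 for mt-Tq, 0.785 for mt-Tm, 0.802 for mt-Nd2, 0.755 for mt-Tw, 0.727 for mt-Tc, 0.837 for mt-Ty, 0.814 for mt-Co1, 0.755 for mt-Td, 0.828 for mt-Co2, 0.809 for mt-Atp8, 0.833 for mt-Atp6, 0.765 for mt-Co3, 0.79 for mt-Tr, 0.842 for mt-Nd4l, 0.835 for mt-Nd4, 0.841 for mt-Tl2, 0.812 for mt-Nd5, 0.773 for mt-Nd6, 0.783 for mt-Te, 0.856 for mt-Cytb, 0.755 for the rRNA share, 0.903 for the mRNA share and 0.778 for the tRNA share. For the sacral library of F3 it was 0.744 for mt-Tf, 0.896 for mt-Rnr1, 0.852 for mt-Tv, 0.828 for mt-Rnr2, 0.776 for mt-Tl1, 0.849 for mt-Nd1, 0.812 for mt-Nd2, 0.771 for mt-Tw, 0.753 for mt-Tn, 0.721 for mt-Tc, 0.842 for mt-Ty, 0.729 for mt-Co1, 0.728 for mt-Ts1, 0.876 for mt-Co2, 0.819 for mt-Atp8, 0.793 for mt-Atp6, 0.82 for mt-Co3, 0.89 for mt-Nd4l, 0.802 for mt-Nd4, 0.793 for mt-Ts2, 0.924 for mt-Tl2, 0.795 for mt-Nd5, 0.851 for mt-Nd6, 0.733 for mt-Cytb, 0.734 for mt-Tt, 0.727 for mt-Tp, 0.723 for the rRNA share and 0.771 for the tRNA share. The cause was not tested.

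Reads on the annotated nuclear genes of the chromosome 1 copy, which enter none of the class sums, were present in every library. The lowest number of reads was 534 for Gm10222 and 4229 for Gm10925, where a count of 0 allows up to 3.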

How the results depend on the processing

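No member tested passed between levels, or in the level by sex comparison, in 20 alternatives each (lowest limma adjusted p 0.208 and 0.581). These counted all 37 genes, except 35 (without the rRNAs) with the rRNA share as a covariate and 36 with the filter of 4 RPKM. With the rRNA share as a covariate, 1 gene passed between the sexes in lumbar and 1 in sacral libraries, mt-Ty both times (-0.54 and -0.79). It was the 1 change of call among the members, and its cause was not tested. The 2 libraries of a donor were paired by a block in the limma fit: without the replicate block, and with donor as a fixed term, 0 members passed, and the calls over all genes between levels were 154 and 792 in place of 978. The signs of the level differences were not stable: 21 of 37 turned without donor F9, 20 without M8 and 11 with sample weights. With each donor left out in turn, the number of genes whose lumbar and sacral libraries correlated ranged from 0 to 15, with 0 without M3 and without M5. The 28 relations with mt-Rnr2 passed by r throughout, whereas for rho the highest adjusted p over mRNAs rose to 0.0765 without M5 (permutation tests). Leaving out the lumbar library of M5 and the sacral library of F3 was chosen after seeing the data: 0 members passed in each of the 4 comparisons. This takes out a high lumbar and a low sacral library and so raises the level differences by construction. Scaled to nuclear reads, 0 of the transcription and processing genes, 7 of the respiratory subunits and 1 of the other mitochondrial genes passed between levels. Depth limits mt-Tk and mt-Tt, with at most 12 and 28 reads per library.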
